A study of Homo sapiens with 9 samples.

Results

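The mRNAs of 50 factors that start, elongate and end cytosolic protein synthesis were followed in the human acute myeloid leukemia (AML) cell line HNT34 after knockdown of EVI1, the oncogenic transcription factor encoded at the MECOM locus. The factors were taken by name and not by a threshold on their values, and each of the 50 was present in the table of 16612 genes and passed the filter on low counts that left 16312 genes for testing. They comprised eIF1 and eIF1A (2 genes), eIF2 (3), its exchange factor eIF2B (5), eIF3 (13), the eIF4 group of cap-binding factors (11), a group of eIF5, eIF5A, eIF5B and eIF6 (4), eEF1 (4), eEF2 with its kinase (2), the termination factors (2) and 4 proteins that bind mRNA or the ribosome.

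HNT34 overexpresses EVI1, and the study asked which transcripts change when EVI1 is lowered. Cells carried 1 of 3 constructs: a non-targeting shRNA (NT), or an shRNA directed against EVI1, sh#16 or sh#87, with 3 libraries in each group and RNA collected 3 days after selection. All 3 groups carried the same lentiviral vector, with a red fluorescent protein, a puromycin resistance gene and the human EF1a promoter, which is the promoter of the member gene EEF1A1. The part of the vector and of the selection in EEF1A1 counts was not tested. The libraries titled 87 carry the shRNA number 18 in another of their labels, and they are called sh#87 here. Nothing states that the 3 libraries of a group came from separate cultures, so that p-values measure only the spread between these libraries, which may be technical. Each group is 1 construct in 1 cell line.

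In the cell, eIF2 carries the initiator tRNA to the small ribosomal subunit, eIF2B reloads eIF2 with GTP, and eIF3 holds the initiation complex together on that subunit. The eIF4 factors bind the mRNA cap and unwind the leader, eIF5 and eIF5B drive GTP hydrolysis and subunit joining, eEF1 delivers aminoacyl-tRNAs and eEF2 moves the ribosome along the message. Leukemic cells depend on high rates of protein synthesis, and phosphorylation of eIF2 and release of eIF4E from its binding proteins are the classical points of control.

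MECOM was measured at 571, 504 and 440.5 CPM in NT, 145, 143 and 145 CPM in sh#16 and 109, 107 and 106 CPM in sh#87 libraries, where CPM are counts scaled to a fixed library total and by the trimmed mean of M values (TMM), and values are listed by replicate number. The 6 knockdown libraries all lay below the 3 NT libraries (exact permutation test, two-sided p = 0.0119, the smallest that this design allows). Depth was between 17096170 and 43502389 counts per library, and the lowest count of any factor in any library was 335, for EIF6. The NT libraries differed from each other more than the others did. Their mitochondrially encoded share of counts was 15.9%, 11.5% and 4.69%, against 2.69% to 2.88% in sh#16 and 4.62% to 5.97% in sh#87 libraries, and the biological coefficient of variation over all genes was 24.95% in NT libraries, 3.75% with sh#16 and 6.95% with sh#87. For 30 of the 50 factors NT replicate 3 was the NT library closest to the knockdown libraries. This count was not made over all genes, so it is not shown to be particular to the factors. Of 8 blood cell markers, 7 were in the table (MPO was not), with a summed level of 2198 to 2269 CPM in NT, 737 to 748 CPM in sh#16 and 490 to 506 CPM in sh#87 libraries. The markers did not move together. PTPRC was at 821 to 895 CPM in NT and 96.4 to 148 CPM in knockdown libraries. CD34 was at 667 to 769 and 41.2 to 118 CPM, and these 2 carried most of the fall in the sum. KIT, at 84.8 to 87.8 and 26.7 to 34.9 CPM, and SPI1, at 61.7 to 83.0 and 8.80 to 19.1 CPM, also fell without overlap. CD33 was at 40.0 to 44.5 and 33.1 to 39.3 CPM. CORO1A overlapped between groups, as did RUNX1 between NT and sh#16. With sh#87 RUNX1 was lower, at 131 to 139 CPM beside 197 to 241 CPM in NT. Of 6 epithelial and fibroblast markers only COL1A1 was in the table, at 0.043 to 0.172 CPM in NT, 25.9 to 26.9 CPM in sh#16 and 28.1 to 30.3 CPM in sh#87 libraries. The part of mitochondrial share and of these markers in the results was not tested.

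Most translation factor mRNAs took a smaller share of the transcriptome in knockdown cells. Together the 50 factors took 3.62% to 4.02% of all counts in NT libraries, 2.92% to 2.98% with sh#16 and 2.38% to 2.40% with sh#87, and the 3 ranges did not overlap. With both EVI1-directed shRNAs set against NT, edgeR's quasi-likelihood test at a Benjamini-Hochberg adjusted p of at most 0.01 called 36 of 50 factors, beside 59.8% of all genes tested. Of these, 32 factors fell, which is 64% of them, beside 29.7% of all genes, and 4 rose, beside 30.1% of all genes. Among the 7139 genes measured at least as high as the lowest factor, EIF2B3, the shares were 37.3% lower and 26.4% higher. The median log2 fold change was -0.50 over the factors and 0.049 over all genes tested. Under upper-quartile normalization, which moved the median of all genes by 0.11, 26 factors were lower and 7 were higher, in place of 32 and 4.

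**Figure D1:**
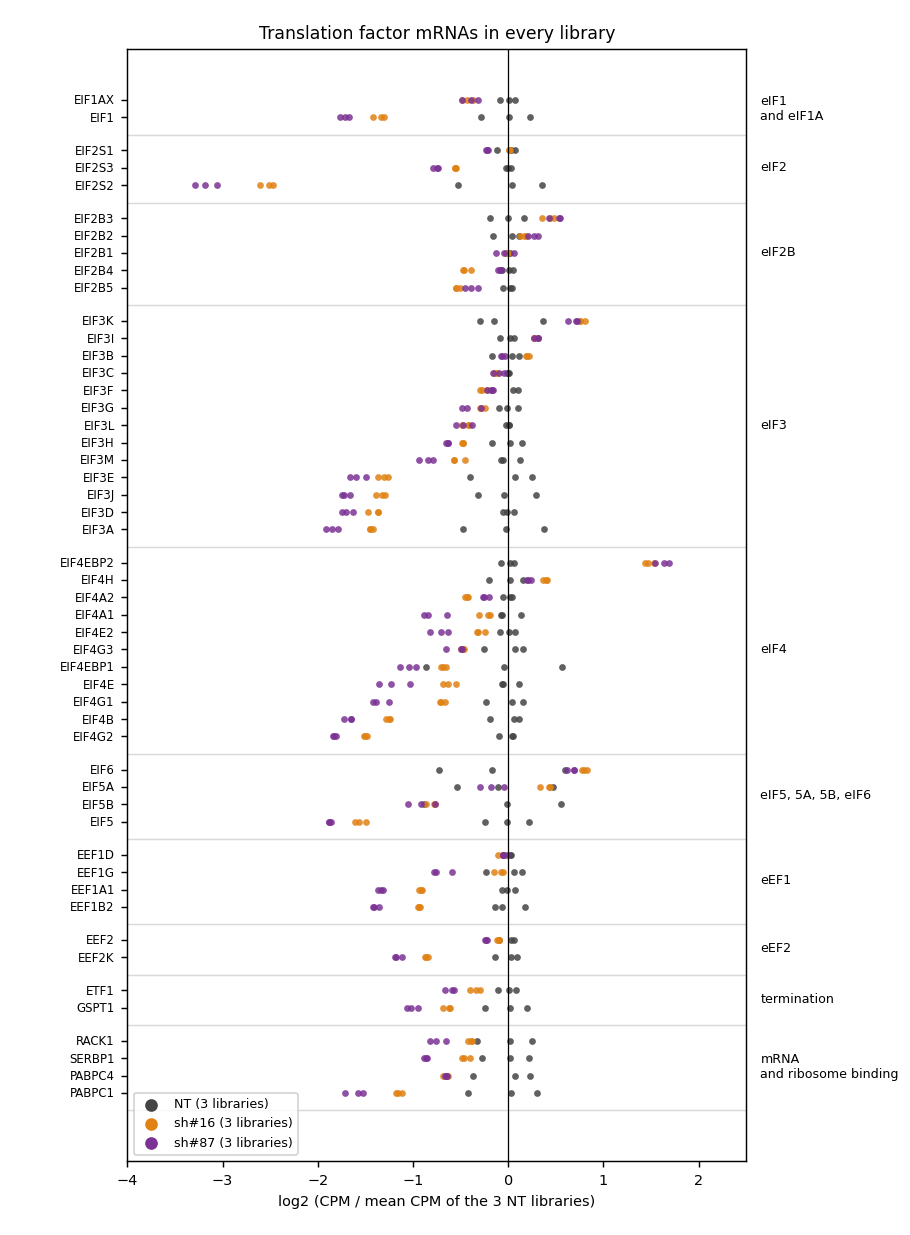
The horizontal axis is the log2 ratio of each library's CPM to the mean CPM of the 3 NT libraries, and each row is 1 of the 50 factors, ordered within its complex by the log2 fold change. Points are single libraries of NT (grey), sh#16 (orange) and sh#87 (purple). EIF2S2 lies farthest to the left, at 42.4 to 74.6 CPM in the 6 knockdown libraries, and EIF4EBP2 farthest to the right, at 498 to 592 CPM.

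Of the falls, 13 were of at least 1 on the log2 scale, beside 17.1% of all genes, while EIF4EBP2 alone rose by as much, beside 21% of all genes. The threshold of 2 given in the study was passed by EIF2S2 alone, beside 15.4% of all genes. In 33 factors the 6 knockdown libraries all lay below the 3 NT libraries, beside 32.1% of all genes, and in 7 they all lay above, beside 33.9%. Since these are pools of cells, less RNA of a factor per cell and fewer cells that express it cannot be told apart, and CPM give shares of the transcriptome rather than amounts per cell.

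Genes of the same complex did not all move alike. The median log2 fold change was -0.65 for eIF2, -0.022 for eIF2B, -0.45 for eIF3, -0.51 for the eIF4 group and -0.74 for eEF1. The distance between the lowest and highest member was 2.71 on the log2 scale within eIF2, 0.92 within eIF2B, 2.36 within eIF3, 3.21 within the eIF4 group and 1.09 within eEF1. This distance tends to grow with the number of genes, which is 3 in eIF2 and 13 in eIF3, so it does not rank the complexes by evenness. No test was run between complexes, which hold few genes each.

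**Figure D2:**
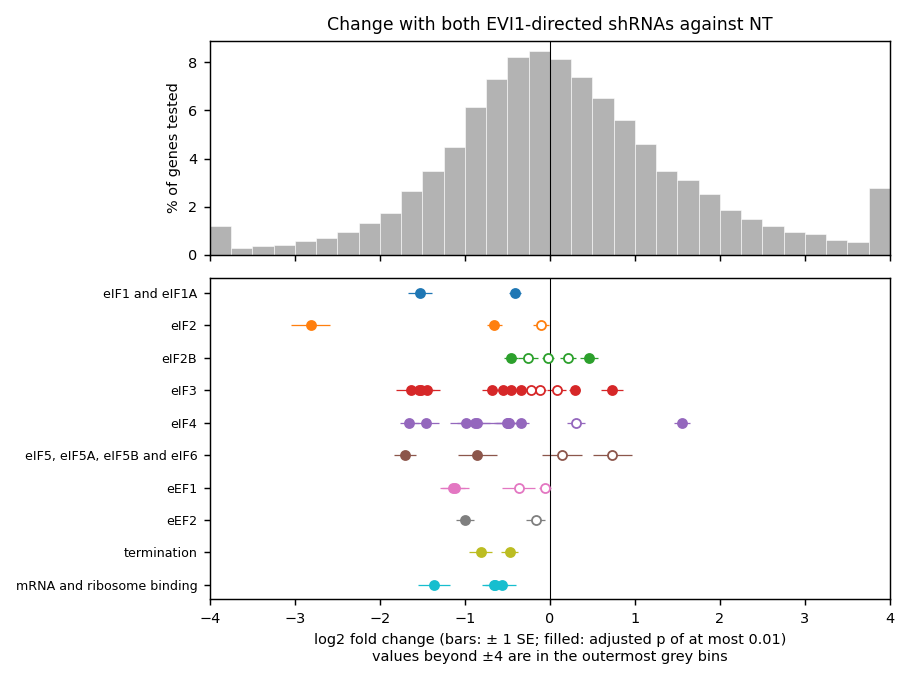
The upper panel gives the percentage of all 16312 genes tested in each bin of the log2 fold change of both shRNAs against NT, and the lower panel gives the 50 factors by complex, with bars of 1 SE and filled circles for an adjusted p of at most 0.01. The eIF2B subunits lie between -0.46 and 0.46, and the 4 filled circles to the right of 0 are EIF2B3, EIF3I, EIF3K and EIF4EBP2.

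In eIF2, the GTPase that brings the initiator tRNA, the beta subunit fell far more than its partners. EIF2S2, which encodes eIF2 beta and lies at chr20:34088309-34112243 in GRCh38, was measured at 531, 425 and 288 CPM in NT, 67.8, 74.6 and 72.9 CPM in sh#16 and 49.8, 42.4 and 45.4 CPM in sh#87 libraries. Every knockdown library lay below every NT library, and the knockdown level was 14.2% of NT (log2 fold change = -2.82, SE 0.22, adjusted p = 2.32e-06). The gamma subunit gene EIF2S3, which encodes the GTP-binding subunit, was at 628 to 649 CPM in NT and 369.8 to 437 CPM in knockdown libraries (log2 fold change = -0.65, SE 0.089, adjusted p = 9.13e-05). The alpha subunit gene EIF2S1, whose protein carries the serine phosphorylated in the integrated stress response, was at 172, 167 and 151 CPM in NT, 165, 163.3 and 164 CPM in sh#16 and 139.7, 139 and 140.2 CPM in sh#87 libraries. Its NT and knockdown libraries overlapped, and it did not pass the test with both shRNAs (log2 fold change = -0.10, SE 0.094, adjusted p = 0.345). Against NT it fell with sh#87 (log2 fold change = -0.22, SE 0.060, adjusted p = 0.00765), whereas its value with sh#16 was 0.0099 (adjusted p = 0.892). The direction for EIF2S1 was not stable. With both shRNAs it was 0.00827 under upper-quartile normalization and 0.32 after correction for transcript length and GC content, and with sh#87 it was 0.28 after the same correction.

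Within a library, the ratio of EIF2S2 to EIF2S1 in CPM per kilobase of transcript does not depend on scaling between libraries. It was 5.03, 4.15 and 3.10 in NT libraries, 0.669, 0.743 and 0.721 with sh#16 and 0.579, 0.496 and 0.527 with sh#87. EIF2S2 was thus the more abundant of the pair per kilobase in each NT library and the less abundant in each knockdown library. EIF2S3 was the highest of the 3 subunits per kilobase in all groups, although its range overlapped with that of EIF2S2 in NT. Named pseudogene copies of EIF2S2 held 2.97% to 5.02% of the joint counts, and adding them left the call in place.

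eIF2B, the nucleotide exchange factor of eIF2 and the target of eIF2 phosphorylation, moved little and in both directions. Of its 5 subunits, 1 rose and 1 fell, beside 30.1% and 29.7% of all genes tested. EIF2B3, for the gamma subunit of the catalytic part, was at 23.0, 20.5 and 17.9 CPM in NT, 28.5, 26.1 and 27.7 CPM in sh#16 and 27.5, 29.8 and 29.7 CPM in sh#87 libraries. Knockdown libraries lay above NT without overlap (log2 fold change = 0.46, SE 0.10, adjusted p = 0.00218), and the call was lost when NT replicate 2 was left out. EIF2B5, for the catalytic epsilon subunit, was at 59.3, 58.4 and 55.5 CPM in NT, 40.5, 39.5 and 39.5 CPM in sh#16 and 43.9, 46.4 and 42.1 CPM in sh#87 libraries and fell (log2 fold change = -0.46, SE 0.082, adjusted p = 5.54e-04). EIF2B4, for the regulatory delta subunit, was at 36.3, 37.4 and 34.3 CPM in NT, 25.9, 27.5 and 26.1 CPM in sh#16 and 34.1, 33.5 and 33.9 CPM in sh#87 libraries. It fell with sh#16 (log2 fold change = -0.44, SE 0.067, adjusted p = 2.90e-04) and did not pass the test with sh#87 (log2 fold change = -0.090, adjusted p = 0.24). EIF2B1, for the alpha subunit, and EIF2B2, for the beta subunit, did not pass with both shRNAs, at -0.022 and 0.21. All knockdown libraries of EIF2B2 lay above NT, at 25.6 to 29.1 CPM beside 21.0 to 25.4 CPM, and all those of EIF2B4 lay below NT. The sign of EIF2B1, which sets the median of the complex, turned to 0.089 under upper-quartile normalization, to 0.22 after length and GC correction and to 0.00582 without sh#87 replicate 1.

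**Figure D3:**
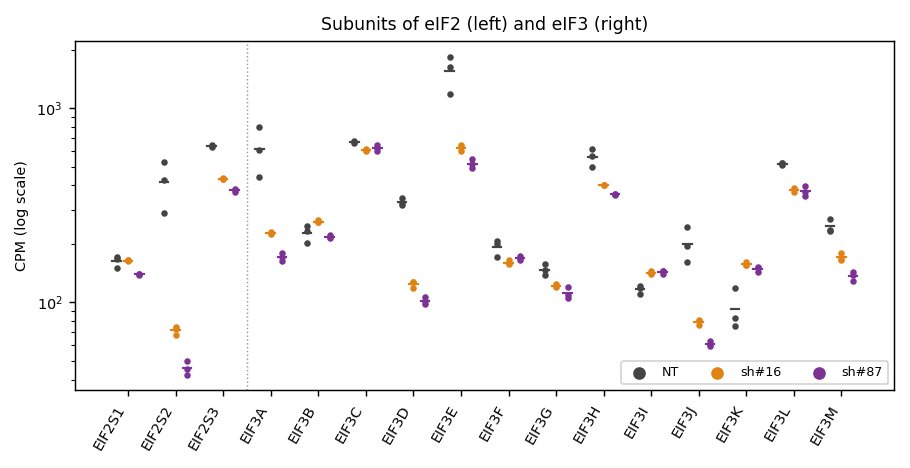
The vertical axis gives CPM on a log scale for the 3 eIF2 subunits on the left and the 13 eIF3 subunits on the right, with 1 point per library and a line at the mean of the 3 libraries of NT (grey), sh#16 (orange) and sh#87 (purple). EIF2S2, EIF3A, EIF3D, EIF3E and EIF3J stand well below NT in both knockdown groups, EIF3B, EIF3C and EIF3F lie close to NT, and EIF3K lies above.

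eIF3, the largest initiation factor, split into subunits that fell by more than 1 on the log2 scale, subunits that fell by less and a pair that rose. Of its 13 subunits 8 fell, beside 29.7% of all genes tested, 2 rose, beside 30.1%, and 3 did not pass. EIF3A, for the large subunit that nucleates the complex, was at 799, 609 and 444 CPM in NT, 226, 230.1 and 225 CPM in sh#16 and 178, 164 and 171 CPM in sh#87 libraries, with no overlap (log2 fold change = -1.63, SE 0.18, adjusted p = 1.92e-05). EIF3D, for the subunit that can itself bind the cap of some mRNAs, was at 343, 327 and 317 CPM in NT, 128, 127 and 119 CPM in sh#16 and 101, 97.9 and 106 CPM in sh#87 libraries (log2 fold change = -1.54, SE 0.10, adjusted p = 6.75e-07). Its NT libraries were close together, and its knockdown level was 34.4% of NT. EIF3E was at 1179 to 1845 CPM in NT and 491 to 647 CPM in knockdown libraries (log2 fold change = -1.44, SE 0.15, adjusted p = 1.17e-05). EIF3J, for the loosely attached subunit that acts at the mRNA channel, was at 160.5 to 245 CPM in NT and 59.8 to 81.2 CPM in knockdown libraries (log2 fold change = -1.51, SE 0.15, adjusted p = 8.64e-06).

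The other falls in eIF3 were smaller, with log2 fold changes of -0.68 for EIF3M, -0.56 for EIF3H, -0.45 for EIF3L and -0.34 for EIF3G. The calls of EIF3M and EIF3H were lost after length and GC correction, and that of EIF3G under upper-quartile normalization, with a replicate block and without NT replicate 2. EIF3B, for the scaffold of the module at the mRNA entry side, did not pass (0.079), nor did EIF3C (-0.12) or EIF3F (-0.22). All knockdown libraries of EIF3C lay below NT, at 601 to 649 CPM beside 665 to 676 CPM. The sign of EIF3B turned to -0.011 without NT replicate 1 and to -0.22 after length and GC correction, and that of EIF3F to 0.10 after the same correction. EIF3K, a small subunit that many eukaryotes lack, was at 75.1, 83.2 and 119 CPM in NT, 156, 162.1 and 155 CPM in sh#16 and 151, 143 and 152 CPM in sh#87 libraries, and all knockdown libraries lay above NT (log2 fold change = 0.73, SE 0.13, adjusted p = 6.29e-04). EIF3I, for a ring-shaped WD-repeat subunit, was at 110.2, 122 and 118 CPM in NT, 141, 145 and 141 CPM in sh#16 and 140.4, 145 and 145 CPM in sh#87 libraries (log2 fold change = 0.29, SE 0.068, adjusted p = 0.00305). The call of EIF3I was lost with a replicate block and without NT replicate 1. Of the 8 subunits that form the core of the human complex (a, c, e, f, h, k, l and m), 5 fell, 1 rose and 2 did not pass. Over all genes tested 29.7% fell and 30.1% rose. Neither direction covered the whole core.

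Subunits of eIF3 assemble in equal numbers, but their mRNAs did not move in proportion. The ratio of EIF3K to EIF3A in CPM per kilobase was 0.811, 1.18 and 2.30 in NT libraries, 5.94, 6.08 and 5.95 with sh#16 and 7.30, 7.54 and 7.66 with sh#87. EIF3E was the highest subunit per kilobase in each group. EIF3F had the lowest mean, although with sh#87 its range overlapped with that of EIF3J, and the fold between EIF3E and EIF3F was 27.6 in NT libraries, 13.4 with sh#16 and 10.5 with sh#87. The length used for EIF3F, 6920 bases in its annotated main transcript, is long for a factor mRNA, and its level per kilobase rests on it. In the order of NT levels, EIF3H, EIF3G, EIF3K, EIF3A, EIF3I, EIF3J and EIF3B each overlapped with the next. EIF3C shares reads with its near-identical copy EIF3CL, which was listed at 1227 counts in NT replicate 1 and at 210 to 632 in the other libraries, so that the level of EIF3C is uncertain by the 1.14% to 7.24% of joint counts that were given to the copy.

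Among the factors that act around start codon recognition, EIF1 and EIF5 fell steeply while EIF1AX fell less. EIF1, which keeps the scanning ribosome open until a start codon is found, was at 682, 584 and 476 CPM in NT, 217, 230.4 and 234 CPM in sh#16 and 182, 177 and 170.4 CPM in sh#87 libraries (log2 fold change = -1.52, SE 0.14, adjusted p = 6.14e-06). EIF5, the activator of GTP hydrolysis on eIF2, was at 448, 380.2 and 326 CPM in NT, 137, 129.9 and 126 CPM in sh#16 and 104, 106 and 104 CPM in sh#87 libraries (log2 fold change = -1.71, SE 0.13, adjusted p = 1.40e-06). The knockdown libraries of both genes were separate from NT, and EIF5 stood at 30.7% of its NT level. EIF1AX, for the partner of EIF1 in scanning, had a log2 fold change of -0.41 (adjusted p = 5.87e-04), which was 0.071 and did not pass after length and GC correction.

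The later-acting factors of this group varied widely between NT libraries. EIF5B, which joins the ribosomal subunits, was at 472, 318 and 173 CPM in NT, 176, 188 and 187 CPM in sh#16 and 189, 155 and 170.4 CPM in sh#87 libraries. NT replicate 3 lay among the knockdown libraries, and the fall (log2 fold change = -0.85, adjusted p = 0.0067) was lost under 12 of 21 alternatives. EIF6, which keeps free large subunits apart from small ones, was at 14.4, 21.1 and 35.9 CPM in NT, 42.3, 41.4 and 40.8 CPM in sh#16 and 38.5, 38.5 and 36.5 CPM in sh#87 libraries. All knockdown libraries lay above NT, but the gene did not pass the test (log2 fold change = 0.73, SE 0.23, adjusted p = 0.0142). EIF5A, whose hypusine-bearing protein relieves stalled ribosomes, was at 142, 192 and 286 CPM in NT, 260.0, 278 and 280.0 CPM in sh#16 and 200.5, 183 and 168 CPM in sh#87 libraries. It overlapped between groups and had no stable sign, at 0.14 over all libraries, -0.081 without NT replicate 1 and -0.099 after length and GC correction.

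In the eIF4 group the cap-binding machinery fell and 1 of its inhibitors rose. Of the 11 genes 8 fell with both shRNAs, beside 29.7% of all genes tested, 1 rose, beside 30.1%, and 2 did not pass. EIF4E, the cap-binding protein, was at 88.4, 78.3 and 78.7 CPM in NT, 52.7, 51.0 and 55.8 CPM in sh#16 and 34.8, 40.1 and 31.8 CPM in sh#87 libraries (log2 fold change = -0.88, SE 0.17, adjusted p = 0.00106). The knockdown libraries lay below NT, and those of sh#87 below those of sh#16. EIF4G1, the scaffold that joins eIF4E to eIF3, was at 597, 723 and 782 CPM in NT, 430.0, 444 and 428 CPM in sh#16 and 295, 263 and 268 CPM in sh#87 libraries (log2 fold change = -0.98, SE 0.20, adjusted p = 0.00112). EIF4G2, a scaffold that lacks the eIF4E-binding site and serves cap-independent initiation, was at 837, 843 and 761 CPM in NT, 287, 291 and 285 CPM in sh#16 and 227, 229 and 231 CPM in sh#87 libraries and fell furthest in the group (log2 fold change = -1.65, SE 0.11, adjusted p = 7.69e-07). EIF4G3, a close relative of EIF4G1, was at 166 to 220.5 CPM in NT and 127 to 144 CPM in knockdown libraries (log2 fold change = -0.51, SE 0.096, adjusted p = 7.75e-04). EIF4E2, a cap-binding relative linked to translational repression, was at 54.4, 52.1 and 48.9 CPM in NT, 41.2, 43.7 and 41.5 CPM in sh#16 and 31.8, 33.5 and 29.2 CPM in sh#87 libraries. It fell by 0.49 on the log2 scale (adjusted p = 0.00773), and 7 of 21 alternatives lost its call.

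The binding proteins of eIF4E went apart. EIF4EBP2, at chr10:70404145-70428618 in GRCh38, encodes a repressor that holds eIF4E away from eIF4G until it is phosphorylated by mTOR. It was at 192, 186 and 175 CPM in NT, 531, 509 and 498 CPM in sh#16 and 536, 574 and 592 CPM in sh#87 libraries. All 6 knockdown libraries lay above NT, and the level was 293% of NT (log2 fold change = 1.55, SE 0.096, adjusted p = 4.31e-07), the highest fold change of the 50 factors. EIF4EBP1, its relative, was at 36.98, 65.2 and 99.6 CPM in NT, 41.8, 42.7 and 41.3 CPM in sh#16 and 34.3, 32.7 and 30.6 CPM in sh#87 libraries. NT replicate 1 lay among the knockdown libraries, and the fall of EIF4EBP1 (log2 fold change = -0.85, SE 0.24, adjusted p = 0.0092) was lost under 11 of 21 alternatives. The ratio of EIF4EBP2 to EIF4E in CPM per kilobase was 0.704, 0.771 and 0.719 in NT libraries, 3.27, 3.23 and 2.89 with sh#16 and 4.99, 4.64 and 6.03 with sh#87. Per kilobase it was below 1 in each NT library and above 1 in each knockdown library. Which side of 1 it takes rests on the lengths used, 7491 bases for EIF4EBP2 and 2427 for EIF4E. In plain counts the ratio was above 1 in every library, at 2.17, 2.38 and 2.22 in NT.

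The helicase of the complex and its cofactors did not share a direction. EIF4B, which stimulates the eIF4A helicase, was at 1824, 1753 and 1479 CPM in NT, 713, 707 and 693 CPM in sh#16 and 536, 508 and 538 CPM in sh#87 libraries (log2 fold change = -1.45, SE 0.14, adjusted p = 9.24e-06). EIF4H, which acts on the same helicase, was at 247, 288 and 316 CPM in NT, 367, 377 and 374 CPM in sh#16 and 327, 335 and 326 CPM in sh#87 libraries, above NT without overlap, and passed the test with sh#16 (log2 fold change = 0.39, SE 0.086, adjusted p = 0.00268) but not with both shRNAs (adjusted p = 0.02). The ratio of EIF4B to EIF4H in CPM per kilobase was 4.91, 4.05 and 3.11 in NT libraries, 1.29, 1.25 and 1.23 with sh#16 and 1.09, 1.01 and 1.10 with sh#87. EIF4A1, the main helicase, was at 495, 500.2 and 574 CPM in NT, 424, 451 and 458 CPM in sh#16 and 335, 292 and 283 CPM in sh#87 libraries. It fell with sh#87 (log2 fold change = -0.79, SE 0.089, adjusted p = 3.57e-05) and did not pass with both shRNAs (-0.48, adjusted p = 0.0259). EIF4A1 overlaps the readthrough gene SENP3-EIF4A1, and reads of the shared exons cannot be assigned to either with certainty. EIF4A2, its paralog, was at 295, 280.4 and 301 CPM in NT, 216, 213 and 219 CPM in sh#16 and 244, 253 and 245 CPM in sh#87 libraries, with a log2 fold change of -0.34 (adjusted p = 0.00517) that was lost under 9 of 21 alternatives and was 0.00430 after length and GC correction.

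The promoters of the factors were searched for 3 short motifs in the window from 250 bases before to 50 bases after the gene start, from RefSeq on GRCh38.p14, on either strand. The E-box CACGTG is a binding sequence of basic helix-loop-helix factors such as MYC and USF. Of the 50 factors 40 had a window, and 8 of these, or 20%, held it, beside 7.43% of all 27305 windows and 10% of the 10373 windows of genes tested. The ETS core CCGGAAG was in 25% of the factor windows and in 19.8% of those of genes tested. The GATA letters AGATAA were in 0 of 40 and in 5.06% of those of genes tested. None of the 3 patterns contains another, and a match is a description of the sequence, not a site shown to be bound. The E-box windows of the called factors are shown because they fall in both directions of change, with the motif in capitals and 12 bases on each side, 5′ to 3′ on the strand of the gene:
EIF4E, chr4:98929341-98929370, minus strand: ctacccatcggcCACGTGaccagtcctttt
EIF4E, chr4:98929188-98929217, minus strand: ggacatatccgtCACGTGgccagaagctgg
EIF4G1, chr3:184314450-184314479, plus strand: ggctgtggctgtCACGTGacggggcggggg
EIF4G1, chr3:184314527-184314556, plus strand: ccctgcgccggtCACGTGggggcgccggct
EIF4B, chr12:53006422-53006451, plus strand: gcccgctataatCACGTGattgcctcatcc
EEF2K, chr16:22206207-22206236, plus strand: cctgggggcggcCACGTGagcgccacgccg
EIF2B3, chr1:44986757-44986786, minus strand: gacagagggacaCACGTGtcgaatgctcct
EIF3K, chr19:38619073-38619102, plus strand: cgaggaagaagtCACGTGgcagccggaaag

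EIF4E holds the motif at -225 and -72 from its gene start and EIF4G1 at -144 and -67. The motif lies at -22 in EIF4B and at -59 in EEF2K, while it lies at -179 in EIF2B3 and at -103 in EIF3K. The first 4 genes fell with both shRNAs, and the last pair rose. EIF3F and EIF4H also hold it and did not pass. The median log2 fold change was -0.55 over the 8 factors with the motif and -0.48 over the 32 without.

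In eEF1, the carrier of aminoacyl-tRNA and its exchange factors, the carrier and 1 exchange subunit fell while another overlapped with NT. EEF1A1, the carrier and the most abundant of the 50 factors, was at 12767, 12229 and 13526 CPM in NT, 6852, 6797 and 6719 CPM in sh#16 and 5167, 4975 and 5079 CPM in sh#87 libraries. It held 1.03% to 1.297% of all counts in NT libraries, 0.717% to 0.740% with sh#16 and 0.542% to 0.546% with sh#87, and it fell (log2 fold change = -1.11, SE 0.16, adjusted p = 1.22e-04). EEF1B2, for the alpha exchange subunit, was at 1088, 918 and 874 CPM in NT, 503, 507 and 499 CPM in sh#16 and 376, 359 and 361 CPM in sh#87 libraries (log2 fold change = -1.14, SE 0.15, adjusted p = 6.56e-05). EEF1D, for the delta exchange subunit, was at 268, 266 and 253 CPM in NT, 252, 255 and 243 CPM in sh#16 and 260.3, 252 and 253 CPM in sh#87 libraries. Its groups overlapped, and the log2 fold change was -0.055 (adjusted p = 0.494), with a sign that turned to 0.056 under upper-quartile normalization. EEF1G, for the gamma subunit that anchors the exchange complex, was at 1836, 2251 and 2377 CPM in NT, 1937, 2074 and 2044 CPM in sh#16 and 1431, 1273 and 1255 CPM in sh#87 libraries. It fell with sh#87 (log2 fold change = -0.71, SE 0.11, adjusted p = 2.66e-04), while the value with sh#16 was -0.094 (adjusted p = 0.454) and turned to 0.011 under upper-quartile normalization.

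The ratio of EEF1A1 to EEF1D in CPM per kilobase was 28.3, 27.3 and 31.9 in NT libraries, 16.2, 15.9 and 16.4 with sh#16 and 11.8, 11.7 and 11.9 with sh#87, so that the groups were separate whatever the scaling. Named copies held 1.48% to 3.62% of the joint counts of EEF1A1 and 2.69% to 10.8% of those of EEF1B2, and adding them left both calls in place. EEF2, the translocase, was at 4479, 5022 and 4913 CPM in NT, 4493, 4479.6 and 4413 CPM in sh#16 and 4124, 4088 and 4060.4 CPM in sh#87 libraries, and did not pass with both shRNAs (log2 fold change = -0.17, adjusted p = 0.202). EEF2K, the kinase that phosphorylates and inactivates eEF2, was at 152, 170.0 and 178 CPM in NT, 93.3, 91.4 and 91.2 CPM in sh#16 and 73.3, 73.7 and 76.9 CPM in sh#87 libraries and fell (log2 fold change = -1.001, SE 0.11, adjusted p = 1.54e-05). Its 6 knockdown libraries lay below NT, at 49.98% of the NT level.

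**Figure D4:**
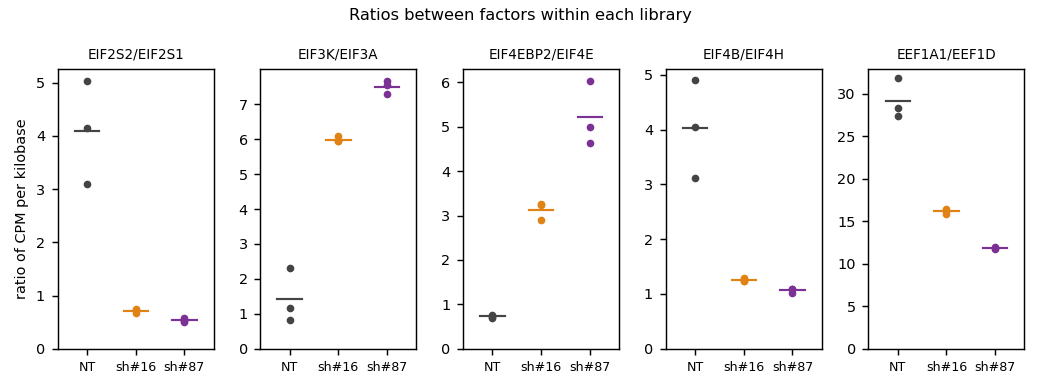
Each panel gives the ratio of 2 factors in CPM per kilobase of transcript on a linear axis from 0, with 1 point per library and a line at the mean of NT, sh#16 and sh#87. The EIF2S2 to EIF2S1 ratio is 3.10 to 5.03 in NT and 0.496 to 0.743 in knockdown libraries, and in each panel the NT points do not overlap with the knockdown points.

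The termination factors and the mRNA-binding and ribosome-binding proteins all fell, beside 29.7% of all genes tested. ETF1, which reads the stop codon, was at 190.4 to 218 CPM in NT and 129 to 167 CPM in knockdown libraries (log2 fold change = -0.47), and GSPT1, its GTPase partner, was at 269 to 365 and 152 to 209 CPM (-0.81). The call of ETF1 was lost after length and GC correction. PABPC1, the main cytoplasmic poly(A)-binding protein, was at 7323, 6074 and 4416 CPM in NT, 2731, 2655 and 2624 CPM in sh#16 and 1987, 1816 and 2067 CPM in sh#87 libraries. Its libraries did not overlap although NT spread from the lowest to the highest by more than the knockdown groups (log2 fold change = -1.36, SE 0.19, adjusted p = 1.01e-04). PABPC4, a relative, had a log2 fold change of -0.65. SERBP1, which occupies the mRNA channel of idle ribosomes, was at 629, 547 and 448 CPM in NT, 387, 393 and 410.2 CPM in sh#16 and 292, 299 and 297 CPM in sh#87 libraries (log2 fold change = -0.64, SE 0.15, adjusted p = 0.00305). RACK1, a scaffold on the small subunit for signaling kinases, was at 1301, 1648 and 1944 CPM in NT, 1249, 1248 and 1221 CPM in sh#16 and 1040.5, 926 and 965 CPM in sh#87 libraries (log2 fold change = -0.56, SE 0.15, adjusted p = 0.00756). The calls of SERBP1 and RACK1 were lost under 3 and 8 of 21 alternatives.

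Taken 1 at a time against the same NT libraries, sh#16 called 35 of 50 factors, beside 60% of all genes tested, with 30 lower (beside 30.2%) and 5 higher (beside 29.8%). sh#87 called 38, beside 67.9% of all genes, with 34 lower (beside 33.6%) and 4 higher (beside 34.3%). The median log2 fold change of the factors was -0.45 with sh#16 and -0.68 with sh#87. Both comparisons use the NT libraries, so the shRNAs were compared directly.

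Set directly against sh#16, sh#87 differed in 12 factors, beside 17.7% of all genes tested, with 11 lower in sh#87 (beside 9.42%, or 13.9% of genes at least as high as EIF2B3) and 1 higher (beside 8.29%, or 7.63%), and the median over the 50 was -0.26 beside -0.016 over all genes. Of the 11 that were lower, 6 were among the 11 genes of the eIF4 group and 3 among the 4 of eEF1. The rest of those groups did not share a direction. All sh#87 libraries lay above sh#16 for EIF4A2 and EIF4EBP2 and below for EIF4H and EIF4EBP1, while EIF4G3 and EEF1D overlapped. EIF4G1 differed most (log2 difference = -0.66, SE 0.10, adjusted p = 0.00165), followed by EEF1G (log2 difference = -0.61, SE 0.11, adjusted p = 0.00326), EIF4E (log2 difference = -0.58, SE 0.096, adjusted p = 0.0024) and EIF4A1 (log2 difference = -0.55, SE 0.089, adjusted p = 0.00217). The values were -0.46 for EEF1B2, -0.42 for EEF1A1, -0.42 for EIF4E2, -0.42 for EIF4B, -0.33 for EIF4G2, -0.30 for EEF2K and -0.29 for EIF3D. EIF2B4 was the factor that was higher in sh#87 (log2 difference = 0.35, SE 0.067, adjusted p = 0.00444). EIF2S2, at -0.65, did not pass (adjusted p = 0.0278).

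This count depended on which libraries were in the fit, and it was between 0 and 3 without any 1 of the knockdown libraries. Leaving out NT replicate 1 gave 24, replicate 2 gave 9 and replicate 3 gave 28, beside 28.1%, 13.3% and 32.4% of all genes. The NT libraries are no arm of this comparison, but they enter the filter, the scaling and the estimate of the spread. Leaving out 1 sh#16 library gave 2, 0 and 1 (replicates 1, 2 and 3), beside 7.25%, 6.65% and 7.16% of all genes. Leaving out 1 sh#87 library gave 3, 1 and 0, beside 9.92%, 6.99% and 7.49%. A fit of the 6 knockdown libraries alone gave 32, of which 30 were lower, beside 48% of all genes in that fit. By library, all sh#87 values lay below all sh#16 values for 33 factors, beside 34.3% of all genes, and above for 5, beside 31.1%. MECOM itself was lower in sh#87 (log2 difference = -0.43, SE 0.089, adjusted p = 0.00661). MYC, a transcription factor known to drive genes of protein synthesis, was at 299, 366 and 444 CPM in NT, 256, 267 and 256 CPM in sh#16 and 111, 93.1 and 98.4 CPM in sh#87 libraries (log2 difference = -1.36, SE 0.13, adjusted p = 2.35e-04). Its part in the factor levels was not tested.

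**Figure D5:**
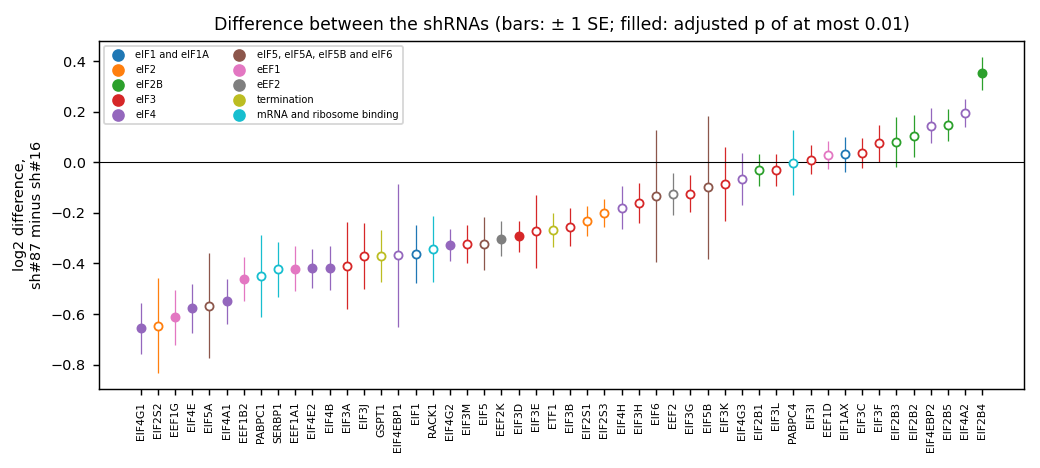
The vertical axis gives the log2 difference of sh#87 minus sh#16 for the 50 factors in rising order, colored by complex, with bars of 1 SE and filled circles for an adjusted p of at most 0.01. The values run from -0.66 for EIF4G1 to 0.35 for EIF2B4, and 39 of the 50 are below 0.

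Genes that regulate the factors were taken as lists and counted in the comparison of both shRNAs with NT. Of 6 eIF2 kinases and phosphatase subunits, 3 fell and 0 rose, beside the 29.7% and 30.1% of all genes. EIF2AK2, the kinase PKR that senses double-stranded RNA, was at 337, 293 and 215 CPM in NT, 93.5, 88.0 and 91.5 CPM in sh#16 and 60.1, 54.4 and 60.04 CPM in sh#87 libraries (log2 fold change = -1.92, SE 0.20, adjusted p = 1.55e-05). EIF2AK1, the heme-regulated kinase, fell by 0.72 on the log2 scale, and PPP1R15A, the inducible subunit that directs dephosphorylation of eIF2 alpha, fell by 0.58. EIF2AK3 and EIF2AK4, the kinases PERK and GCN2, did not pass, at -0.075 and 0.024, nor did PPP1R15B at -0.17.

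Of 13 mTOR and cap-complex regulators in the table, 5 rose and 7 fell, beside 30.1% and 29.7% of all genes (EIF4EBP3 and PAIP2B were not in the table). The kinases that phosphorylate eIF4E rose. MKNK2 was at 31.7, 44.7 and 75.0 CPM in NT, 308, 320.1 and 317 CPM in sh#16 and 399, 399.6 and 376 CPM in sh#87 libraries (log2 fold change = 2.81, SE 0.26, adjusted p = 6.06e-06), and MKNK1 was at 45.9 to 48.1 CPM in NT and 112 to 138 CPM in knockdown libraries (log2 fold change = 1.39, SE 0.099, adjusted p = 1.05e-06). EIF4E3, an atypical cap-binding relative of EIF4E, was at 2.54, 2.73 and 2.33 CPM in NT, 51.0, 52.0 and 56.0 CPM in sh#16 and 46.7, 48.4 and 47.4 CPM in sh#87 libraries (log2 fold change = 4.31, SE 0.12, adjusted p = 1.07e-08), while EIF4E fell. MTOR itself rose by 0.94 and RPS6KB2, an S6 kinase, by 1.97, whereas RHEB, the GTPase that activates mTOR complex 1, had -1.14 and RPS6KB1, the other S6 kinase, -0.66. PDCD4, an inhibitor of eIF4A, was at 167, 151 and 123 CPM in NT, 80.1, 82.8 and 83.8 CPM in sh#16 and 52.7, 49.0 and 49.6 CPM in sh#87 libraries (log2 fold change = -1.14, SE 0.20, adjusted p = 5.34e-04). LARP1, which represses mRNAs with a terminal oligopyrimidine tract, had -1.28, EIF4ENIF1, which shuttles eIF4E into the nucleus, -1.24, and PAIP1 and PAIP2, which bind poly(A)-binding protein and respectively promote and repress translation, -1.43 and -0.73.

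Of 10 paralogs and further factors in the table, 3 rose and 5 fell, beside 30.1% and 29.7% of all genes (EIF5A2 and GSPT2 were not in the table). EIF2A, which can bring initiator tRNA independently of eIF2, fell by 1.45. EIF4A3, the helicase of the exon junction complex, rose by 0.91, and EEFSEC, the elongation factor for selenocysteine, by 1.26. HABP4, a relative of SERBP1, rose by 2.61 from a low level of 0.390 to 1.08 CPM in NT. EEF1A2, the tissue-restricted form of the carrier, did not pass (-0.56, adjusted p = 0.0608), and EIF1B, the paralog of EIF1, had -0.52 (adjusted p = 0.0153).

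Of 8 enzymes that place hypusine on eIF5A or diphthamide on eEF2, 2 rose (DPH3 at 1.05 and DPH7 at 1.06) and 2 fell (DPH5 at -0.72 and DPH6 at -0.62), beside 30.1% and 29.7% of all genes. The hypusine enzymes DHPS and DOHH did not pass. Of 5 recycling and rescue factors, 2 fell and 2 rose, beside 29.7% and 30.1% of all genes. ABCE1, the ATPase that splits ribosomes after termination, was at 267, 237 and 213 CPM in NT, 94.7, 96.4 and 103 CPM in sh#16 and 66.5, 66.9 and 65.8 CPM in sh#87 libraries (log2 fold change = -1.54, SE 0.17, adjusted p = 1.71e-05). The rescue partners PELO and HBS1L, which release stalled ribosomes, rose by 0.78 and 0.55. Of 9 mitochondrial translation factors, 4 fell and 0 rose, beside the same shares of 29.7% and 30.1%. MTIF2 and MTIF3, the mitochondrial initiation factors, had -1.58 and -1.41, and TUFM, the mitochondrial carrier of aminoacyl-tRNA, did not pass (0.060).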

How the data were processed

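RNA of HNT34 cells was sequenced from polyA-selected, stranded libraries, 3 in each of 3 groups, which were assigned from the labels. The values used are gene-level estimated counts, deposited by the authors in a single table. The file headers name salmon output, whereas the study's methods name STAR gene counts on GRCh38, and the submitters' processing notes also name FastQC 1.3. The header is shifted left by 1 position relative to the values, and its 9 names were matched to the 9 columns of counts in order. All values were whole, and every row names a gene.

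From the deposited counts, differential expression was computed over all genes in R 4.3.3 with edgeR 4.0.16 (filterByExpr, TMM, quasi-likelihood test, Benjamini-Hochberg adjustment). Both EVI1-directed shRNAs together were set against NT in a fit of 2 groups, and sh#16, sh#87 and their difference were tested in a fit of 3 groups. Genes were called at an adjusted p of at most 0.01. SE is the absolute log2 fold change divided by the square root of the F statistic of the test. Each gene has 1 spread shared by all groups in the fit, so SE and p-values can be too small for genes that varied more in NT libraries. CPM were TMM-scaled, and levels per kilobase used the annotated main transcript of each gene. The factors, complexes and regulator lists were chosen with earlier results of these data known, so no set test was run. Values by library were given for the 5 highest and 5 lowest log2 fold changes among called factors, the highest and lowest of eIF2, eIF2B, eIF3, eIF4 and eEF1, factors that differed between the shRNAs, and SERBP1, PABPC1 and RACK1. Since only 4 called factors rose, the fifth highest was EIF4A2, which fell. Of the regulator lists, called genes that moved by 1 or more on the log2 scale were named. Genes given in detail beyond this rule were chosen after their values were seen.

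In data simulated from the depths and mean levels of these libraries, 99% of genes changed by 0.5 on the log2 scale and 100% of those changed by 1 were recovered among 15953 genes for both shRNAs against NT. Every simulated library had the same spread, well below the biological coefficient of variation of 24.95% in NT libraries, and only genes above a low level were changed. The simulation thus checks the code and does not give the power in the real data. Alternatives were other normalizations, filters and thresholds, DESeq2 1.42.0, limma-voom (limma 3.58.1), a replicate block, another grouping of libraries in the fit and leaving out each library, and, chosen after seeing the data, removal of mitochondrially encoded and small RNA genes, addition of named copies, and a length and GC correction. Replicate libraries differed by more than sampling noise. Depth was 17096170 to 43502389 counts per library, so that counting error was small for the factors. The spread between libraries is a separate error, and no intervals were computed for levels or ratios. Promoter windows were taken from RefSeq on GRCh38.p14. No paralog or pseudogene was merged in the main counts.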

Additional observations from a re-analysis of the deposited data

Results flagged for a closer look

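In 3 of 73 measures over the 6 knockdown libraries, 1 library stood far from the nearest other in relation to the whole range. For EIF4G3 the gap was 0.794 of the range of its CPM, for HABP4 it was 0.644, and for the total counts it was 0.773, set by the depth of sh#16 replicate 2. Chance alone flags about 1 in 20 such groups.

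The direct test of sh#87 minus sh#16 passed for 21 of 70 genes examined. These 70 were the factors, MECOM, MYC and the called regulator genes that moved by 1 or more on the log2 scale against NT. The regulator genes were thus picked on values of these same libraries. The share of the 70 therefore cannot be compared with the 17.7% of all genes tested. The number of factors that passed, 12, was between 0 and 3 without any 1 of the knockdown libraries, beside 6.65% to 9.92% of all genes. It was 4 with a replicate block, beside 9.74%. For the factors, the log2 differences were -0.66 for EIF4G1, -0.61 for EEF1G, -0.58 for EIF4E, -0.55 for EIF4A1, -0.46 for EEF1B2, -0.42 for EEF1A1, -0.42 for EIF4E2, -0.42 for EIF4B, -0.33 for EIF4G2, -0.30 for EEF2K, -0.29 for EIF3D and 0.35 for EIF2B4. Among the other genes, MECOM was lower with sh#87 by a log2 difference of -0.43 and MYC by -1.36. The values were -0.64 for EIF2AK2, -0.63 for RHEB, -0.71 for PDCD4, -0.39 for LARP1 and -0.56 for ABCE1, while MKNK1 was higher at 0.24 and DPH7 at 0.78.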

How the results depend on the processing

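Of the 36 factors called with both shRNAs, 23 kept their call in all 21 alternatives, 21 of them lower and 2 higher. Kept calls were not counted over all genes, so this share is not shown to be particular to the factors. The number of factors called stayed within 1.5 times of 36 in every alternative, while 47.9% to 72.1% of all genes were called. The number of factors that differed between the shRNAs, 12, became 23 with the threshold on the adjusted p set to 0.05, beside 33.7% of all genes. It was 32 in a fit of the 6 knockdown libraries alone, where the spread of the NT libraries does not enter, beside 48% of all genes. When 1 library was left out it ranged from 0 to 28, beside 6.65% to 32.4% of all genes. Same-numbered libraries did not deviate together (r between -0.14 and 0.083 over 9 pairs), so that the numbers do not pair them. A replicate block gave 29 called factors with both shRNAs, beside 53.1% of all genes, and 4 that differed between the shRNAs, beside 9.74%. With groups of 3 and uneven NT libraries, factors near the threshold could not be called firmly in either direction.

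Under upper-quartile normalization the median log2 fold change was -0.54 for eIF2, 0.089 for eIF2B, -0.34 for eIF3, -0.40 for the eIF4 group and -0.63 for eEF1. After length and GC correction it was -0.29, 0.22, -0.29, -0.44 and -0.87. The median of eEF1 was -0.77 with limma-voom and with the fit of 3 groups, and it ranged from -0.80 to -0.68 when 1 library was left out. That of eIF2B, set by EIF2B1, ranged from -0.044 to 0.00582.

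The sign turned for a few factors, most of which had not passed the test. With both shRNAs under upper-quartile normalization, EIF2S1 was at 0.00827, EIF2B1 at 0.089 and EEF1D at 0.056. After length and GC correction, EIF1AX was at 0.071, EIF2S1 at 0.32, EIF2B1 at 0.22, EIF3B at -0.22, EIF3F at 0.10, EIF4A2 at 0.00430 and EIF5A at -0.099. Leaving out 1 library gave -0.011 to 0.12 for EIF3B, -0.081 to 0.43 for EIF5A and -0.044 to 0.00582 for EIF2B1. With sh#16, EIF2S1 was at -0.011 with RLE normalization and at -0.010 with DESeq2 and ranged from -0.069 to 0.032 when 1 library was left out, and EEF1D was at 0.033 and EEF1G at 0.011 under upper-quartile normalization. With sh#87, EIF2B4 was at 0.029 and EEF1D at 0.079 under upper-quartile normalization, and EIF2S1 at 0.28 and EIF4A2 at 0.17 after length and GC correction. The cause of these turns was not tested.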
